A study of Mus musculus with 44 samples.

Results

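Ribosome biogenesis genes encode the proteins that transcribe, cut, modify and fold ribosomal RNA in the nucleolus and load it with ribosomal proteins. They were followed here through mouse medulloblastoma, a tumor of the cerebellum, by a list of 50 genes. Of these, 49 had a row in the tumor table (16078 genes), in the table of treated lines (15926 genes) and in both single-cell tables, and Noc2l was not analysed here. By role, 10 serve ribosomal RNA transcription and the nucleolar scaffold, 7 belong to small nucleolar RNA-protein particles (snoRNPs), 18 to the small subunit processome and the 40S subunit, and 14 to assembly of the 60S subunit. Regions of open chromatin within 1 kb of a gene start were present for 47 of the genes in the ATAC table of lines and GTS sources (51 of 88981 regions) and for 44 in the ATAC table of GFP fractions (49 of 88258 regions). The 44 genes with a region in both tables were used.

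The bulk RNA came from 8 tumors labelled GTML and 6 labelled GTS, and from the lines GTML3 and preGTS1 under DMSO, the solvent, or DOX, with 3 samples for each line and condition. ATAC-seq, in which a transposase tags accessible DNA, covered duplicates of both lines under both conditions, of GTS1 and GTS2, and of fractions labelled GFP and NoneGFP. Single-cell RNA came from 1 library labelled GTML_SOX9-GFP and 1 labelled fGTS2. As background, GTML mice express MYCN from a transgene that answers to a tetracycline-controlled activator, placed under the promoter of Glt1, a glial glutamate transporter, doxycycline switches that activator off, and the related GTS model adds a driver from Sox9. The labels name the source, the tissue as tumor and the treatment. Strain, age, dose and time of treatment are not given in the sources used here, and each line is 1 line, so a difference between GTML3 and preGTS1 is a difference between those lines.

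MYC and MYCN are transcription factors known to raise both ribosomal RNA synthesis and the production of proteins that assemble ribosomes. RNA polymerase I makes the precursor of ribosomal RNA, box C/D and H/ACA snoRNPs guide its methylation and pseudouridylation, the small subunit processome folds and cuts the part that becomes 18S RNA, and a separate set of factors, among them the complex of Pes1, Bop1 and Wdr12, matures the large subunit. MYC family proteins with their partner Max bind the E-box CACGTG, which reads the same on both strands.

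Promoter sequences are shown for the 4 genes that hold CACGTG and fell most under DOX in GTML3 (values follow), beside Dkc1, whose RNA fell most of all 49 and whose window lacks that motif. Each window runs from 250 bases before to 50 bases after the RefSeq gene start, 300 bases in all, on build GRCm38.p6, 5′ to 3′ on the strand of the gene, with CACGTG in capitals. Ltv1, which acts in maturation of the 40S subunit, lies on the minus strand at chr10:13193088-13193387. Nop2, a methyltransferase of large subunit RNA, lies on the plus strand at chr6:125131633-125131932. Utp20, a scaffold of the small subunit processome, lies on the minus strand at chr10:88826765-88827064. Mybbp1a, a nucleolar protein that binds RNA polymerase I, lies on the plus strand at chr11:72441077-72441376. Dkc1, the pseudouridine synthase of H/ACA snoRNPs, lies on the plus strand at chrX:75095604-75095903.
Ltv1: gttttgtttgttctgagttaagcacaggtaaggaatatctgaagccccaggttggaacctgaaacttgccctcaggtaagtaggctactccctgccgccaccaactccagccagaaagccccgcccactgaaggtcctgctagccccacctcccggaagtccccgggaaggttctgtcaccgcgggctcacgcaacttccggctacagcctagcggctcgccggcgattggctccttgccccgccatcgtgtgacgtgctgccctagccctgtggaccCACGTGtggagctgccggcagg
Nop2: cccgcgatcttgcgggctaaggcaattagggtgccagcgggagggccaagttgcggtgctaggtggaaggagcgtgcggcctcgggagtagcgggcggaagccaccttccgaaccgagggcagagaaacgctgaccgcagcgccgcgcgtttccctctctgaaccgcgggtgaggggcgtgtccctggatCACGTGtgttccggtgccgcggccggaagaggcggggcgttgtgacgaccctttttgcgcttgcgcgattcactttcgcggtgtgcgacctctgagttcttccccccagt
Utp20: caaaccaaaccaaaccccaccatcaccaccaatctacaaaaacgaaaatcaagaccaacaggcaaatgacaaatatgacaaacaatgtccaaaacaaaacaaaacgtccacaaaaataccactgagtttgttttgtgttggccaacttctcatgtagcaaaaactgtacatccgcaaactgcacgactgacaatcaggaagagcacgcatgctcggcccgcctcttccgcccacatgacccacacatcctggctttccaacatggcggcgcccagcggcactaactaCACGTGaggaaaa
Mybbp1a: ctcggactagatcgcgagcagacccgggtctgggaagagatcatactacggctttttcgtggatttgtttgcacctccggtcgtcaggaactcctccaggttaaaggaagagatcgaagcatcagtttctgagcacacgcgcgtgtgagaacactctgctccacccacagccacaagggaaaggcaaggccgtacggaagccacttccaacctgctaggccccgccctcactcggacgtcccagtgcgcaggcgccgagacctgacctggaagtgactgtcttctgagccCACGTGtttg
Dkc1: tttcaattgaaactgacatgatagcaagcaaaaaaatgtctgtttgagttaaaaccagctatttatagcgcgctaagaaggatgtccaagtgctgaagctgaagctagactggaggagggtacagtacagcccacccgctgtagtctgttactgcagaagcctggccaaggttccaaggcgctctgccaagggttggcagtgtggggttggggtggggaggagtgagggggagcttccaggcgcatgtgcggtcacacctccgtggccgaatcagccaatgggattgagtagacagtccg

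The motif CACGTG, searched on both strands, was present in the windows of 9 of the 43 genes with a RefSeq promoter entry (20.9%), against 2187 of 27025 gene symbols (8.09%). Those symbols are all that have an entry, whether expressed here or not, and were not matched for base composition. The other genes holding it were Wdr43, Tsr1, Utp18, Pes1 and Imp4. The median log2 fold change under DOX was -1.84 for the 9 genes with it and -1.62 for the 34 without it in GTML3, and -2.12 against -2.01 in preGTS1. Such a match describes the letters in the window and shows no binding.

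Depth in the treated-line RNA was 10.861 to 24.672 M reads per library, and in the listed ATAC regions 0.827 to 14.954 M reads. The depth of the tumors is unknown, since the values used here are log2 CPM (reads scaled to library size) with a batch mean removed. By the chi-square comparison of reads, DOX replicate 1 of GTML3 was unlike both others (60.4 and 85.1 per degree of freedom, against a lowest value of 4.67 among RNA pairs). For the 49 genes, the comparison of the lines under DOX is given without it as well. Tumor 1 of GTS was the lowest of its group in mean log2 CPM over the 49 genes. Log2 CPM is not scaled to gene length, so in bulk RNA each gene is compared with itself only.

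Under DOX all 49 genes fell in GTML3 and none rose, by limma with Benjamini-Hochberg adjusted p under 0.05, against 31.4% of all genes lower and 34.5% higher. The median log2 fold change of the 49 was -1.68, against 0.05 over all 15926 genes, and 43 of them were at a log2 fold change of -1 or lower, as were 14.3% of all genes. In each of the 49, every DOX value lay below every DMSO value, a separation seen in 32.9% of all genes. The summed level of the 49 genes was 9445 to 9715 CPM in the DMSO libraries and 2651 to 2994 CPM in the DOX libraries. Mycn, tested as the driver gene, had log2 CPM of 8.69, 8.48 and 8.42 under DMSO and 4.93, 5.07 and 4.8 under DOX (log2 fold change -3.59, SE 0.15, limma adjusted p = 6.72e-11). Whether those Mycn reads came from the transgene or the mouse gene was not tested.

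Among genes of ribosomal RNA transcription and the nucleolar scaffold, all 10 fell in GTML3, with a median log2 fold change of -1.79. Ddx21, an RNA helicase of the nucleolus, had log2 CPM of 8.61, 8.66 and 8.7 under DMSO and 6.04, 6.09 and 6.22 under DOX (-2.54, SE 0.0892, adjusted p = 2.08e-12). The chaperone of snoRNPs Nolc1 had 8.62, 8.52 and 8.58 against 6, 6.07 and 6.11 (-2.51), and nucleophosmin, Npm1, a scaffold of the nucleolus, 9.99, 10.1 and 10.08 against 7.48, 7.72 and 7.86 (-2.37). In these 3 genes the gap between conditions was many times the spread within either. Polr1c, a subunit that RNA polymerases I and III share, changed least of the 49, from 6.91, 6.72 and 6.91 to 6.04, 6.45 and 6.4 (-0.55, SE 0.107, adjusted p = 0.000319). The polymerase I subunits Polr1a, Polr1b and Polr1e had log2 fold changes of -1.25, -1.80 and -1.42.

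The 7 snoRNP genes had the lowest median of the roles in GTML3, -2.16. Dkc1 showed the lowest fold change of the 49, with 8.42, 8.55 and 8.51 under DMSO and 5.74, 5.59 and 5.7 under DOX (-2.81, SE 0.088, adjusted p = 7.12e-13). Fbl, the methyltransferase of box C/D particles, had 5.26, 5.12 and 5.21 against 2.34, 2.61 and 3.19 (-2.49, SE 0.183), a wider spread under DOX than that of Dkc1, and 307 reads over the 3 DOX libraries. Nhp2, an H/ACA core protein, had 7.77, 7.61 and 7.58 against 5.15, 5.26 and 5.19 (-2.46). The box C/D core proteins Nop56 and Nop58 had log2 fold changes of -2.02 and -1.72, and the U3 protein Rrp9 of -2.16.

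All 18 small subunit genes fell in GTML3 with a median of -1.45, and all 14 genes of 60S assembly with a median of -1.56. Rrp12, which acts in export of both subunits, had 6.47, 6.28 and 6.44 under DMSO against 3.91, 4.07 and 3.9 under DOX (-2.44), the lowest of the small subunit genes. Utp20 and Heatr1, large scaffolds of the processome, had log2 fold changes of -1.86 and -1.80, and Imp4, a protein bound to U3, of -0.86. Pes1 and Bop1 of the large subunit complex fell by 0.91 and 0.81, and their partner Wdr12 by 1.91. The 3 members of that complex thus spanned most of the range seen in 60S assembly.

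**Figure D1:**
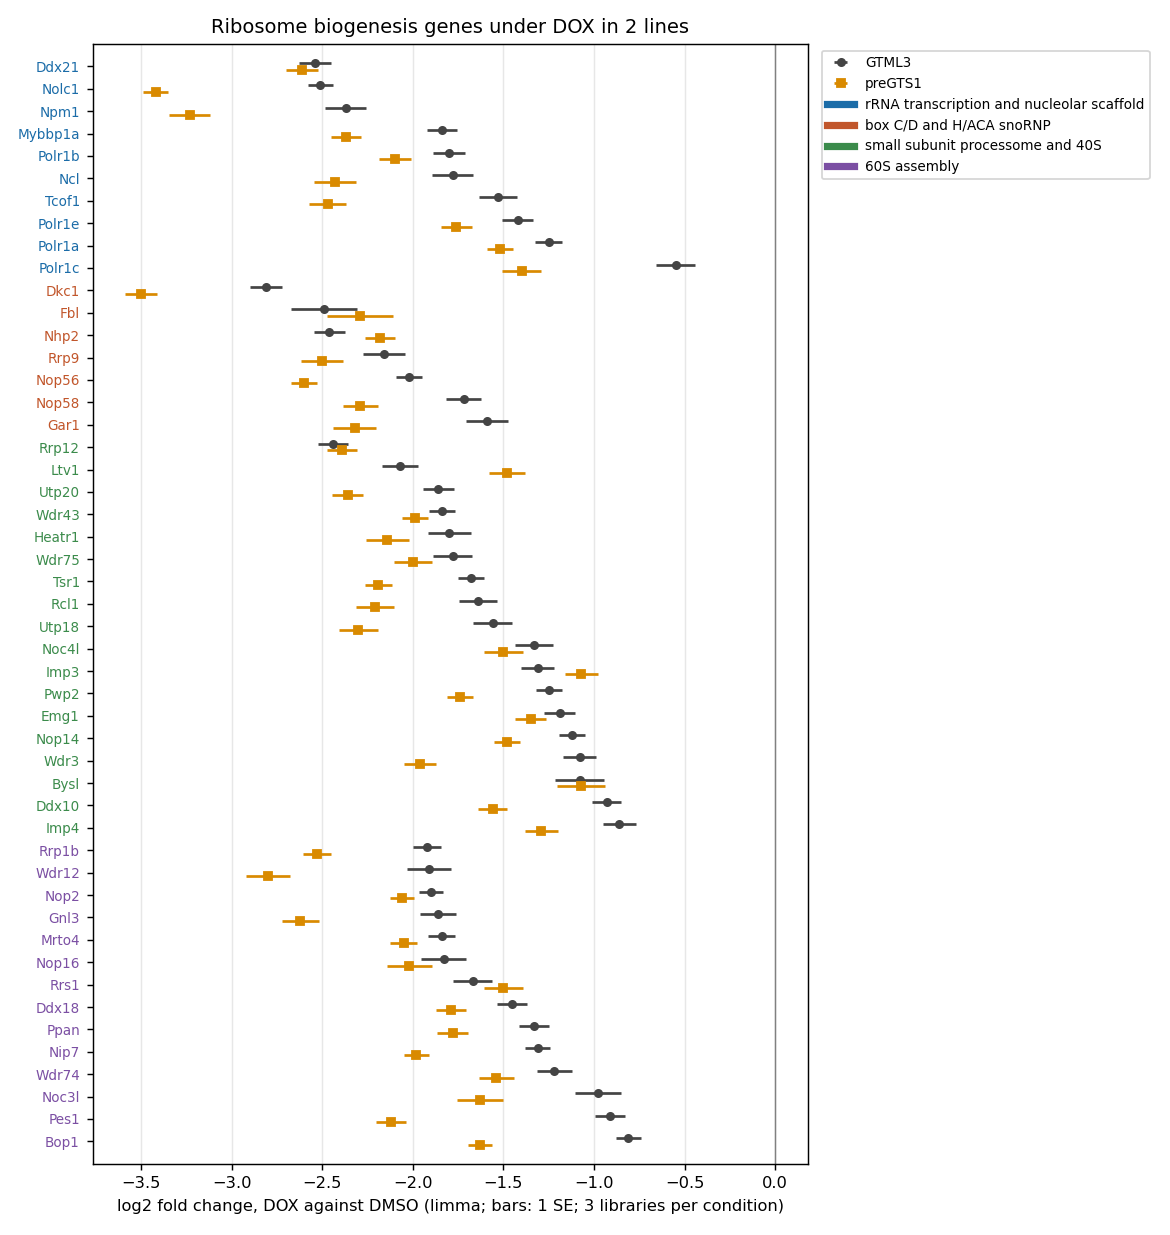
Log2 fold change of each of the 49 genes under DOX against DMSO in GTML3 (circles) and preGTS1 (squares), from limma, with bars of 1 SE and 3 libraries per condition; gene names are colored by role. Every point lies below 0, from -2.81 (Dkc1) to -0.55 (Polr1c) in GTML3 and from -3.50 (Dkc1) to -1.07 (Bysl and Imp3) in preGTS1.

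In preGTS1 the 49 genes fell under DOX as well, none rose, and all 49 were at a log2 fold change of -1 or lower. Over all genes 33.7% were lower and 34.5% higher, and 16.7% had a log2 fold change of -1 or lower. The median of the 49 was -2.06, against 0.04 over all genes, and their DOX values lay wholly below their DMSO values, as did those of 35.6% of all genes. A log2 fold change of -2 or lower was reached by 27 of the 49 in preGTS1 and 10 in GTML3, against 4.55% and 3.91% of all genes. The summed level of the 49 went from 15684 to 16153 CPM under DMSO to 3023 to 3293 CPM under DOX. Mycn had 10.54, 10.45 and 10.91 under DMSO and 5.54, 6.13 and 5.65 under DOX (-4.86, adjusted p = 2.22e-12).

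The genes with the lowest fold changes were again Dkc1, from 8.37, 8.43 and 8.37 to 4.98, 4.68 and 5.02 (-3.50, SE 0.088, adjusted p = 7.35e-14), and Nolc1, from 9.05, 9.05 and 9.11 to 5.66, 5.55 and 5.72 (-3.42). Npm1 went from 11.61, 11.67 and 11.61 to 8.65, 8.18 and 8.36 (-3.23, SE 0.113). Wdr12 and Gnl3, the nucleolar GTPase nucleostemin, fell by 2.80 and 2.62 on the log2 scale, and Ddx21 by 2.61. At the other end, Bysl, a factor of 40S maturation, went from 5.79, 5.74 and 6.27 to 4.72, 5.1 and 4.77 (-1.07, SE 0.133), and the U3-bound Imp3 from 6.2, 6.14 and 6.22 to 5.05, 5.26 and 5.04 (-1.07). The medians by role were -2.40 for transcription and scaffold, -2.32 for snoRNPs, -1.85 for the small subunit and -2 for 60S assembly.

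Across the 49 genes the fold changes in GTML3 and preGTS1 had a Pearson r of 0.76, against 0.66 over all 15926 genes. Both lines stand in 1 fit and no sample is shared between the contrasts. The genes of a pathway are not independent replicates.

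Other genes of the pathway moved the same way. Of 77 further ribosome biogenesis genes, 69 fell and 1 rose in GTML3 (median -0.86), and 75 fell and 0 rose in preGTS1 (median -1.44). Of 85 cytosolic ribosomal protein genes, 82 fell in GTML3 (median -0.85) and 72 fell and 2 rose in preGTS1 (median -0.99). In GTML3 their mean log2 CPM was 8.29, 8.2 and 8.07 under DMSO and 7, 7.49 and 7.51 under DOX. DOX replicate 1 was thus the lowest, and these genes were not refitted without it. The medians of both lists were nearer 0 than those of the 49 genes in both lines. Cell cycle genes moved with them, as 16 of 16 S phase genes fell in each line (medians -3.00 and -2.98), as did 15 of 16 G2/M genes in GTML3 (median -2.98) and 16 of 16 in preGTS1 (median -3.70). Of 7 neuron genes, 6 rose and 1 fell in GTML3, and 7 rose in preGTS1. Of 3 astrocyte genes, 2 rose and 1 fell in GTML3, and 3 rose in preGTS1. In each line 3 of 5 oligodendrocyte genes rose and 1 fell, and 2 of 4 endothelial and mural genes rose. Of 9 medulloblastoma and granule neuron lineage genes, which include Mycn, 2 rose and 4 fell in GTML3, and 5 rose and 1 fell in preGTS1. The part of cell division or of cell makeup in the fall of the 49 genes was not tested, and in bulk RNA fewer cells of a type and less RNA per cell cannot be told apart.

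The fall was larger in preGTS1 for most of the genes. The difference of the responses was tested in the same fit, and in 30 of the 49 genes the response was lower in preGTS1 and in 1 it was higher, against 25.1% and 17.1% of all genes. The median difference was -0.45 log2, against -0.10 over all genes. By role, the lower response was called in 8 of 10 transcription and scaffold genes, 4 of 7 snoRNP genes, 9 of 18 small subunit genes and 9 of 14 genes of 60S assembly.

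Pes1 had the largest difference. Its log2 CPM went from 7.54, 7.55 and 7.51 to 6.42, 6.7 and 6.74 in GTML3 and from 8.85, 8.79 and 8.88 to 6.78, 6.73 and 6.66 in preGTS1 (difference -1.21, SE 0.117, adjusted p = 1.27e-06). The levels under DOX were thus near each other, and the levels under DMSO were not. Tcof1, the treacle protein that serves polymerase I, had a difference of -0.94, Nolc1 -0.91, Wdr12 -0.89, the processome protein Wdr3 -0.88 and Npm1 -0.86. Ltv1 was the gene with a smaller fall in preGTS1, from 6.04, 5.98 and 6 to 4.45, 4.53 and 4.58, against 6.29, 6.35 and 6.42 to 4.07, 4.48 and 4.32 in GTML3 (difference 0.58, SE 0.139, adjusted p = 0.0035). For Fbl (0.19, SE 0.259, adjusted p = 0.573) and Ddx21 (-0.07, SE 0.126, adjusted p = 0.673) the test did not pass. Mycn had a larger fall in preGTS1 as well (difference -1.27, adjusted p = 0.000324), as had 44 of 77 further biogenesis genes (2 the other way) and 15 of 16 G2/M genes.

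Without DOX, most of the genes were higher in preGTS1 than in GTML3. Under DMSO 38 of the 49 were higher and 3 lower, against 38.5% and 27.9% of all genes, with a median of 0.57 against 0.13. Ppan, a factor of large subunit assembly, had 6.42, 6.16 and 6.33 in GTML3 and 7.86, 7.9 and 8.02 in preGTS1 (1.62, SE 0.0843), and Npm1 was higher by 1.57 on the log2 scale, Pes1 by 1.31 and Nip7, a late factor of the large subunit, by 1.25. The 3 lower genes were Gar1 (-0.50), Ltv1 (-0.35) and Noc4l (-0.28). Mycn was higher in preGTS1 by 2.10 log2, and 76 of 85 ribosomal protein genes were higher. When each library was centred on its median gene, the counts were 36 higher and 5 lower, against 5323 and 5101 of all 15926 genes. That centring moved the median of all genes from 0.13 to 0.02.

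Under DOX the lines lay nearer each other, with 22 genes higher and 9 lower in preGTS1, against 36.9% and 35% of all genes, and a median of 0.14 against 0.02. Fbl was higher by 1.37 log2 (GTML3 2.34, 2.61 and 3.19, preGTS1 3.85, 4.23 and 4.16), Ppan by 1.17 and Nhp2 by 0.93. Gar1, the H/ACA partner of Dkc1, was lower, with 3.8, 3.72 and 3.7 in GTML3 against 2.45, 2.38 and 2.7 in preGTS1 (-1.23, SE 0.118, adjusted p = 1.56e-07), and so were Wdr3 (-0.94), Gnl3 (-0.81) and Dkc1 (-0.79). Gar1 and Dkc1 thus lay on the other side from Fbl and Nhp2 within the snoRNP group. Centring on the median gene gave 20 higher and 13 lower, against 5326 and 6134 of all 15926 genes. Without DOX replicate 1 of GTML3 there were 20 higher and 11 lower with a median of 0.04. Over all 15926 genes that fit gave 5666 higher and 5420 lower with a median of 0.02. Without DOX replicate 1 of preGTS1 there were 21 higher and 11 lower with a median of 0.07.

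**Figure D2:**
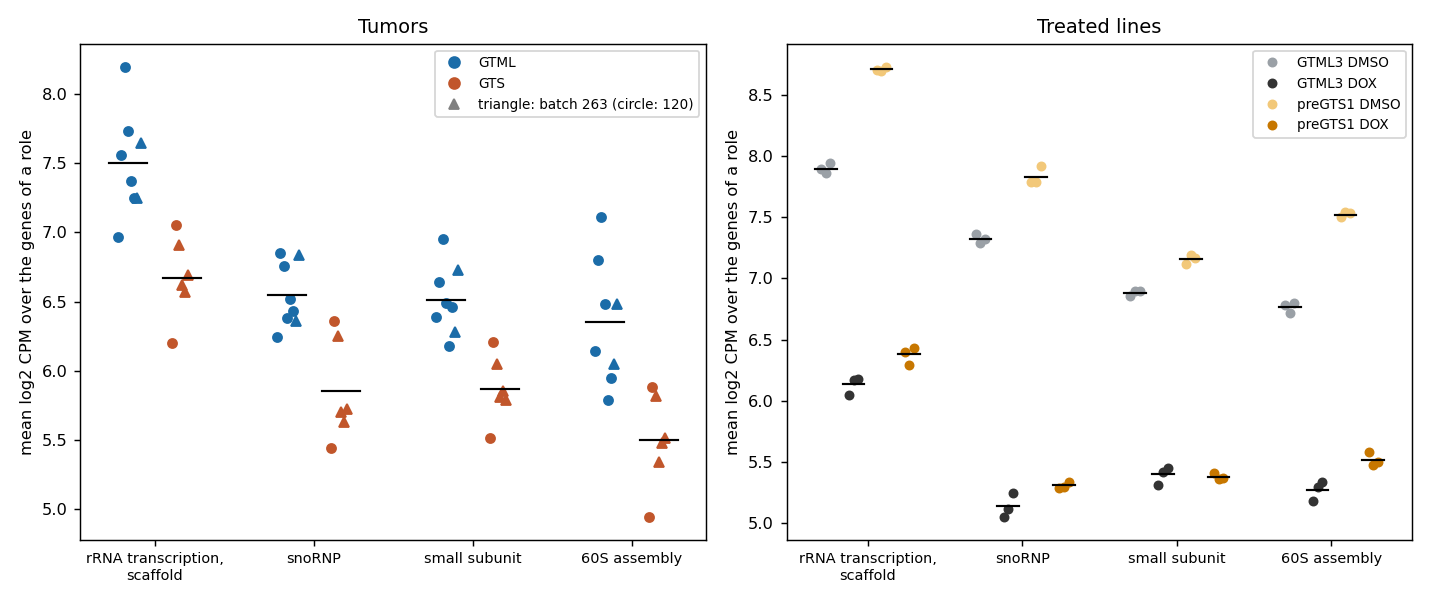
Mean log2 CPM over the genes of each role, 1 point per tumor (left) or library (right), with black bars for group means. In the lines every DOX point lies below every DMSO point of the same line and role, for example 5.05 to 5.25 against 7.29 to 7.36 for snoRNP genes in GTML3.

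In tumors the genes tended to lower values in GTS than in GTML, but no single gene passed the test. With tumor kind and batch in the limma fit, 0 of 49 genes were called lower and 0 higher, against 0.00637% and 0.0509% of all genes. At an unadjusted p under 0.05 there were 28 of the 49, against 3067 of 15708 genes. That count was 14 when each tumor was centred on its median gene (2528 of 15708 genes). Without 1 tumor it ran from 14 (without GTS tumor 1, 1906 of 15602 genes) over 17 (without GTML tumor 8, 2584 of 15640) to 32 (without GTS tumor 2, 3374 of 15624). The difference GTS minus GTML was negative in 47 of 49 genes, with a median of -0.64 against -0.07 over all genes. The mean log2 CPM over the 49 genes was 6.36 to 7.23 in GTML tumors (6.67 ± 0.308, SD, n = 8) and 5.48 to 6.31 in GTS tumors (5.92 ± 0.294, SD, n = 6). These means did not overlap, but the nearest lay close, at 6.36 and 6.31. A batch mean had been removed from the values behind them, and no test was run on them.

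Column names of the table carry 1 of 2 numbers, read here as a batch, with 6 GTML and 2 GTS tumors in the first batch and 2 GTML and 4 GTS tumors in the other. Within the first batch the median difference of the 49 genes was -0.44, and within the other it was -0.68. A fit without the batch term called 12 genes lower and 0 higher (1.96% and 3.92% of all genes), but its errors are too small, as a batch mean had been removed from the values before deposit. With the batch term, leaving out GTS tumor 2 gave 9 of the 49 genes lower, against 229 lower and 354 higher of all 15624 genes. Leaving out GTS tumor 3 gave 3 lower, against 103 lower and 213 higher of all 15577 genes. Leaving out any other tumor gave 0 of the 49.

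Heatr1 had the largest difference. Its log2 CPM in the 8 GTML tumors was 5.01 at the lowest, 8.79 at the median and 9.24 at the highest, and in the 6 GTS tumors 4.13, 5.81 and 6.51 (-2.45, SE 0.712, limma adjusted p = 0.11, and -3.66 and -1.09 within the first and the other batch). GTML tumor 5 lay among the GTS tumors, so the groups overlapped. Tcof1 ran from 5.07 over a median of 5.91 to 9.55 in GTML and from 3.31 over 4.74 to 5.24 in GTS (-2.05, SE 0.777, adjusted p = 0.186). In GTML, tumors 3 and 4 were far above the others for Tcof1, at 9.55 and 9.1, and for Rrp1b, a nucleolar factor of large subunit assembly, at 9.44 and 9.28 (-1.90, adjusted p = 0.211). Gnl3 spanned 5.35 to 8.47 in GTML and 3.06 to 6.58 in GTS (-1.87, adjusted p = 0.188).

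All GTS values lay below all GTML values in 4 genes, Fbl, Mybbp1a, Rrp12 and Nop14, and above in 0, against 0.809% of all genes below and 1.04% above. Fbl was at 4.91, 5.35 and 6.53 (lowest, median, highest) in GTML and at 3.33, 4.53 and 4.63 in GTS (-1.25, SE 0.356, adjusted p = 0.105). Mybbp1a was at 8.28, 8.61 and 8.95 against 7.51, 7.95 and 8.17 (-0.64, SE 0.146, adjusted p = 0.0723), and Nop14, a processome protein, at 6.2, 6.45 and 7.06 against 5.63, 5.81 and 6.18 (-0.65). Fbl differed by -1.73 and -0.70 within the first and the other batch, and Mybbp1a by -0.75 and -0.53. The lowest adjusted p among the genes named was that of Utp20, 0.0681 (-0.81, SE 0.179). Near 0 lay Tsr1, a late 40S factor (0.09), Imp3 (0.04), Ltv1 (-0.01) and Emg1, an 18S RNA methyltransferase (-0.10), and the sign of these 4 depended on the batch, the scaling or 1 tumor.

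The medians by role in tumors were -0.64 for transcription and scaffold, -0.56 for snoRNPs, -0.55 for the small subunit and -0.71 for 60S assembly. Mycn differed by -0.63 (adjusted p = 0.205). Of 75 further biogenesis genes, 71 differed in the negative direction (median -0.48), as did 80 of 84 ribosomal protein genes (median -0.27), 16 of 16 S phase genes (median -0.87) and 16 of 16 G2/M genes (median -0.84), with 0 called in each list. Summed S phase genes ran from 2135 to 3411 CPM in GTML and from 741 to 2727 CPM in GTS, and G2/M genes from 2710 to 4457 and from 825 to 3889 CPM. Of 11 medulloblastoma and granule neuron lineage genes, which include Mycn, 9 were negative and 2 positive (median -1.54), with 0 called. They summed to 852 to 2649 CPM in GTML and 153 to 1991 CPM in GTS. Markers of other cells went both ways. All 7 astrocyte genes were positive (median 1.98, summed 63.6 to 485 CPM in GTML and 189 to 1157 CPM in GTS), as were 8 of 9 oligodendrocyte genes (67.7 to 451 against 114 to 832 CPM) and 10 of 12 microglia and macrophage genes (164 to 588 against 302 to 768 CPM). Of 7 endothelial and mural genes 6 were negative (median -0.38), as were 2 of 3 erythroid genes, 1 of 2 T and NK cell genes and 3 of 7 neuron genes (median 0.08). Their part in the difference was not tested.

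**Figure D3:**
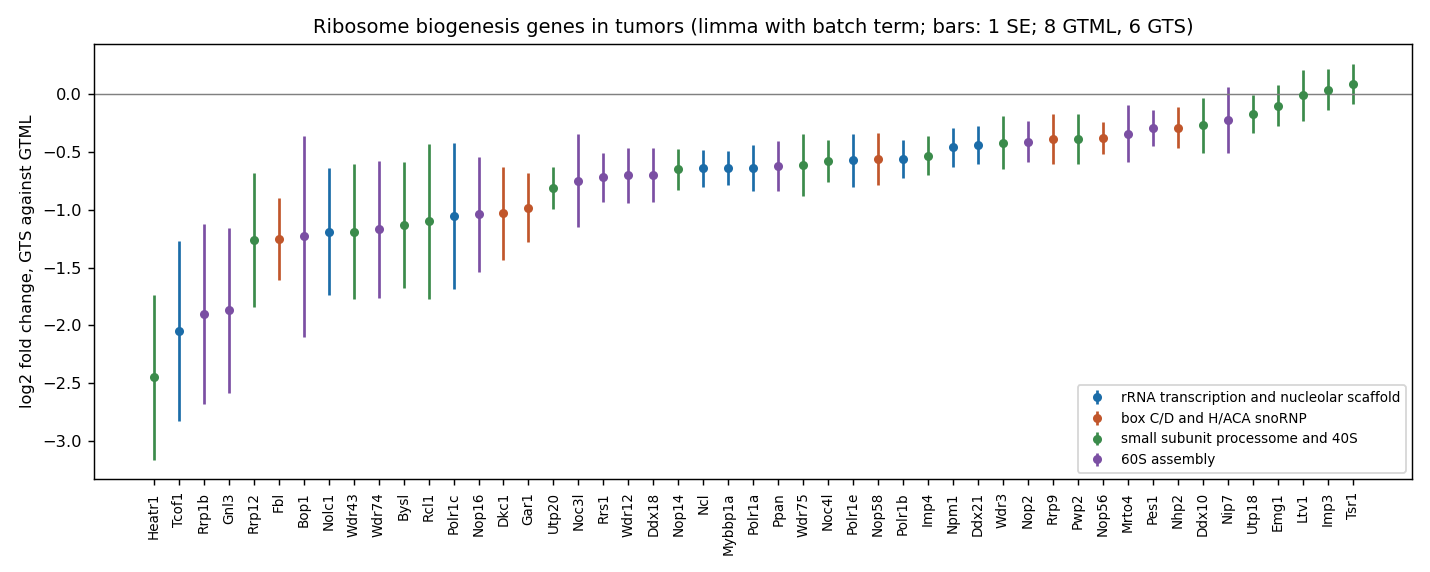
Log2 fold change of each of the 49 genes in GTS against GTML tumors, from limma with a batch term, with bars of 1 SE (8 GTML and 6 GTS tumors) and colors for roles. Of the points, 47 lie below 0, from Heatr1 at -2.45, and none passed an adjusted p of 0.05.

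Open chromatin at the promoters of these genes showed no common shift under DOX. Values are given as the log2 ratio of CPM plus a pseudocount of 1. Duplicates had a chi-square per degree of freedom of 1.88 to 2.05 in all 8 pairs, where counting independent reads gives about 1. That value hardly moved over depths of 0.827 to 14.954 M reads, so it does not show a difference between duplicates beyond counting. Whether duplicates were separate samples was not tested. They were merged and counted as 1 sample for these ratios, which carry no test. A limma test over the single libraries compares libraries, not conditions, and is given beside them, with calls at an adjusted p under 0.05. In GTML3 under DOX, 2 of 48 regions were lower and 2 higher by at least 1.5-fold, against 13% and 10.9% of all 13445 promoter regions, with a median of -0.02. In preGTS1, 0 were lower and 1 was higher, against 9.43% and 8.41%, with a median of 0.08 and 0.02 over all promoter regions. By limma on single libraries, 0 regions were lower and 1 higher in GTML3, against 2.39% and 1.76% of all promoter regions. In preGTS1 0 were called either way, against 2.43% lower and 2.45% higher. At the genes with the lowest RNA fold changes the ratios were small or moderate. Dkc1 had 109 CPM under DOX and 101 under DMSO in GTML3 (0.12), and 66.1 and 71.8 in preGTS1 (-0.12). At Nolc1 the values were 30.6 and 33.1 CPM (-0.11), and 23.7 and 22.5 (0.07), and Ddx21 had a ratio of -0.55 in GTML3.

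The regions past 1.5-fold in GTML3 rested on few reads. Mrto4, a factor of large subunit assembly, had 28 reads (15.6 CPM) under DOX and 92 (26.9 CPM) under DMSO, a log2 ratio of -0.75, at chr4:138907875-138908913 on mm9, the build whose coordinates the ATAC tables carry. Polr1b had 22 reads against 71 (-0.72) at chr2:128926473-128927173, and Utp20 45 against 41 (1, as the DOX libraries were shallower). The fourth was 1 of 2 regions at Wdr74, with 5 reads under DOX and 0 under DMSO, too few for a fold. In preGTS1 the lowest were Polr1b (-0.53, 174 reads against 300), Ltv1 (-0.43) and Wdr43 (-0.37), and the highest was Polr1e (0.69, 229 reads against 160). Polr1b was thus low under DOX in both lines, without passing 1.5-fold in preGTS1. Without DMSO duplicate 2 the count past 1.5-fold in GTML3 moved from 4 to 7, against 14.1% of all promoter regions lower and 14.1% higher. Without DOX duplicate 2 it moved to 11 (5 lower and 6 higher), against 18.2% lower and 12.7% higher. In preGTS1 it moved from 1 to 2 or 3 whichever of the 4 libraries was left out. All promoter regions were then 10.1% to 10.9% lower and 8.94% to 9.57% higher. Across the 48 regions, the RNA and ATAC changes had a Pearson r of 0.12 in GTML3 and 0.11 in preGTS1, where regions of 1 gene share its RNA value.

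**Figure D4:**
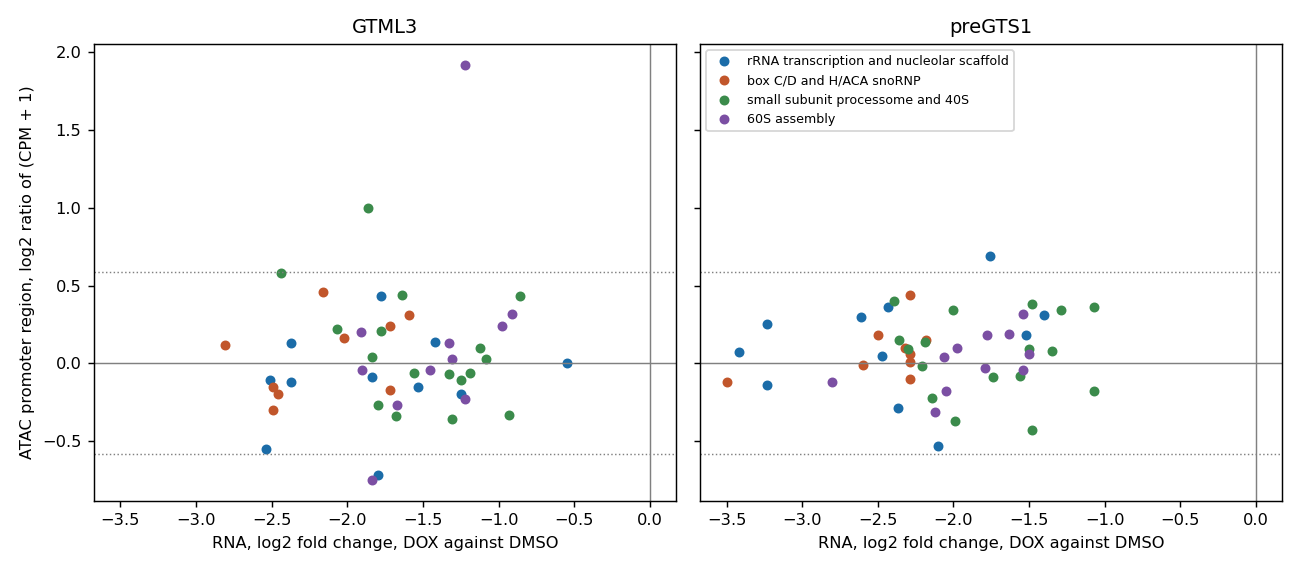
RNA log2 fold change under DOX (horizontal) against the log2 ratio of promoter ATAC CPM + 1 (vertical) for 48 regions of 44 genes, in GTML3 and preGTS1, colored by role. The RNA values are all below 0 while the ATAC ratios scatter around medians of -0.02 and 0.08.

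Between sources the regions spread more. With preGTS1 against GTML3 under DMSO, 15 regions were lower and 1 higher by 1.5-fold (25.8% and 16.4% of all promoter regions), with a median of -0.20 against -0.21 over all promoters. The lowest were Ddx18, a helicase of 60S assembly (-1), Noc4l (-0.96) and Mrto4 (-0.93), and the region called higher was that of Wdr74 with 0 reads in GTML3. By limma on single libraries, 13 of the 48 were lower and 0 higher, against 20.1% and 8.38% of all promoter regions. Against GTML3 under DMSO, GTS1 had 5 regions lower and 10 higher (27.5% and 27.6%, median 0.00), led by Gar1 (-0.96) and Npm1 (-0.92) at the low end and, beside that Wdr74 region, Imp3 (1.18) at the high end. Without DMSO duplicate 2 of GTML3 that count of 15 became 24 (8 lower and 16 higher), against 27.6% and 28.5% of all promoter regions. For GTS2, 4 regions were lower and 13 higher (22.6% and 26.9%, median 0.13), from Mrto4 (-0.79) to Nop58 (1.21). By limma on single libraries, 9 were lower and 10 higher in GTS1 (24.2% and 20.6% of all promoter regions), and 8 lower and 9 higher in GTS2 (19.6% and 23%). These comparisons share the GTML3 libraries. In GFP against NoneGFP cells, 0 of 49 regions passed 1.5-fold either way (0.439% lower and 1.09% higher of all 13208 promoter regions), with ratios from -0.45 at Emg1 to 0.36 at Rrp12, and limma on single libraries called 3 lower and 0 higher (2.31% and 1.31%).

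In level, the promoter regions of these genes had a median of 29.4 to 42.4 CPM over the 8 conditions, against 21.5 to 29.9 CPM for all promoter regions, and 27 to 33 of the 48 or 49 regions lay above the median of all promoters. Values per region are not scaled to its length.

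In single cells, 4645 cells of GTML_SOX9-GFP and 4498 of fGTS2 were present, with median UMI counts per cell of 18744 and 20893.5 (a UMI tags 1 captured molecule) and 6 cell barcodes in common. With 1 library a group there is no test, and the intervals given are exact 95% Poisson intervals of counting error only. Doublets were not removed, and the part of free RNA was not tested. The 49 genes made up 11200 CPM in GTML_SOX9-GFP and 10800 CPM in fGTS2. Npm1 was the most abundant, at 3800 CPM (3780 to 3810) and 4170 CPM (4160 to 4190), followed by nucleolin, Ncl, a nucleolar RNA-binding protein, at 2090 and 1630 CPM, and Nhp2 at 634 and 580 CPM. Since 1 end of each molecule is counted, these levels carry no factor of transcript length. At the low end lay Pwp2, a processome protein (14 and 8.88 CPM), Wdr74 (14.5 and 14.7), Heatr1 (14.7 and 12.5), Rrp12 (16.2 and 10.7) and Polr1b (14.9 and 16.2).

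Between the libraries the genes differed little. In fGTS2 5 genes were lower and 1 higher by at least 1.5-fold, against 33.7% and 14.4% of all genes, with a median log2 ratio of -0.13 against -0.27. Utp20 was lowest, at 17.4 CPM (16.6 to 18.2) against 30.9 CPM (29.8 to 32), then Nop14 (-0.67) and Pwp2 (-0.65). Tsr1 was highest, at 87 CPM (85.2 to 88.8) against 50.6 CPM (49.2 to 52).

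Cells with at least 10000 UMIs (4149 and 4210 cells, with 496 and 288 left out) were thinned to 10000 UMIs each and placed in 3 classes by UMIs of the cell cycle lists. A cell with 5 or more UMIs of the G2/M list was put in G2/M, a cell with fewer but 5 or more of the S list in S, and the rest in neither. Those classes are ranges and not cell types, as 267 and 218 cells had 4 or 5 UMIs of the G2/M list, and 425 and 423 of the S list. In GTML_SOX9-GFP the median cell held 112 UMIs of the 49 genes in G2/M (3049 cells), 118 in S (374 cells) and 97 in neither (726 cells). In fGTS2 it held 113 in G2/M (2198 cells), 106 in S (529 cells) and 96 in neither (1483 cells).

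Gene by gene, 36 of the 49 were higher in G2/M than in neither in GTML_SOX9-GFP (46.7% of all genes higher, median 0.13) and 44 in fGTS2 (48.4%, median 0.34). In S they were 47 (46.7%, median 0.23) and 46 (50.3%, median 0.25). Each of these 4 counts, as a share of the 49, lay above the share of all genes. Tcof1 led in G2/M in both libraries, at 101 against 45.8 CPM (log2 ratio 1.14) and 96.9 against 29.1 CPM (1.74). Ncl was at 2170 against 1660 CPM and 1850 against 1230 CPM, whereas Npm1 hardly differed, at 3840 against 3620 and 4170 against 4150 CPM. Tsr1 lay lowest in both, at 47.3 against 63.5 CPM (-0.42) and 77 against 105 CPM (-0.45). The median of GTML_SOX9-GFP depended on the settings, while that of all genes was -0.03 in the main one. When totals left out mitochondrial and ribosomal protein genes it was 0.03, against -0.13 over all genes, with 27 of 49 higher (37.3% of all genes). With a limit of 10 UMIs for the class it was 0.02 against -0.03, with 27 of 49 higher (46.8%).

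**Figure D5:**
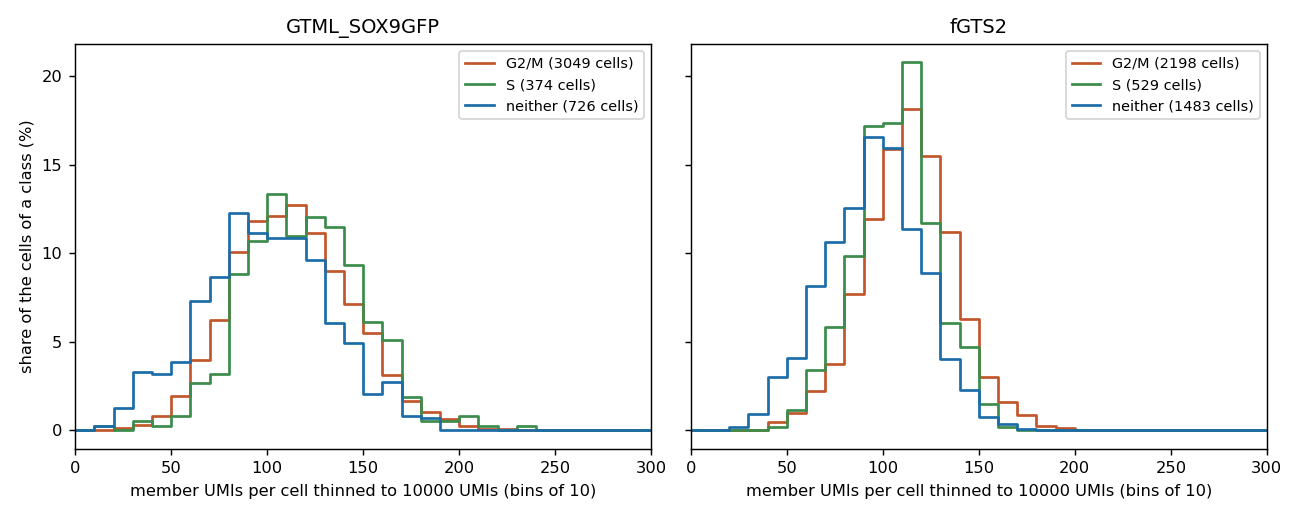
Share of cells (percent, vertical) by the number of UMIs of the 49 genes in cells thinned to 10000 UMIs (horizontal, bins of 10), for the G2/M, S and neither classes in GTML_SOX9-GFP and fGTS2. The classes overlap widely, with medians of 112, 118 and 97 UMIs in the former and 113, 106 and 96 in the latter.

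Cells with a Sox9 UMI held slightly less of these genes. In the thinned cells of GTML_SOX9-GFP, 321 cells had one and 3828 had none, with medians of 103 and 110.5 UMIs of the 49 genes. For fGTS2 these were 1870 and 2340 cells, with medians of 100 and 111. Gene by gene 44 of 49 were lower in GTML_SOX9-GFP (49.3% of all genes, median log2 ratio -0.11) and 48 in fGTS2 (48.5%, median -0.16), where Tsr1 was the exception at 0.24. The share of G2/M cells was 72.6% against 73.6% in the former and 46.3% against 56.9% in the latter. Among cells in neither cycling class the counts were 43 of 49 lower (50.3%, median -0.23, 56 against 670 cells) and 45 of 49 (48.9%, median -0.20, 788 against 695 cells), with medians of 83.5 against 98.5 and of 89 against 103 UMIs per cell. Gene ratios here, as for the other classes of cells, used all UMIs of each cell. With thinned UMIs 42 of 49 were lower in GTML_SOX9-GFP (50.8% of all genes) and 47 in fGTS2 (49.5%). Among cells in neither class these were 37 (50.6%, median -0.18) and 44 (49.8%, median -0.19). The astrocyte list was at 122 against 27.4 CPM in the former and 123 against 35.5 CPM in the latter and holds Sox9 itself, on which the thinned cells were split. Its other 3 markers with a row were Aqp4, Aldoc and S100b in the former and Aldoc, S100b and Aldh1l1 in the latter. They summed to 18.8 against 23.1 CPM and 5.83 against 5.39 CPM (0 of 3 and 2 of 3 higher). Aldoc made up nearly all of each sum, at 18.8 against 23 and 5.6 against 5.07 CPM, and the rest stood at 0.28 CPM or lower. Among cells in neither cycling class the sums were 41.9 against 47.7 and 8.41 against 7.76 CPM. A missing Sox9 UMI does not show that a cell lacks Sox9 RNA.

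Cells with more Mycn UMIs held more. In GTML_SOX9-GFP the median cell held 105 UMIs of the 49 genes with 0 Mycn UMIs (2357 cells), 116 with 1 or 2 (1576 cells) and 133 with 3 or more (216 cells). In fGTS2 it held 104, 110 and 113 (2685, 1436 and 89 cells). Comparing 3 or more with 0, 47 of 49 genes were higher in GTML_SOX9-GFP (54.4% of all genes, median 0.31) and 44 in fGTS2 (50.8%, median 0.13). Ddx21 was at 289 against 181 CPM and Gnl3 at 359 against 232 CPM in the former, and at 167 against 151 and 299 against 242 CPM in the latter. Among cells in neither cycling class 48 of 49 were higher in GTML_SOX9-GFP (55%, median 0.48, 37 against 402 cells) and 43 in fGTS2 (50.4%, median 0.35, 36 against 937 cells), with summed levels of 12100 CPM (11800 to 12300) against 9300 (9230 to 9370) and of 10900 (10600 to 11100) against 9230 (9190 to 9280).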

How the data were processed

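The members, gene lists, thresholds and alternatives were chosen with earlier results of these data known. Groups came from the sample titles. Of 44 samples, 26 were bulk RNA, 16 ATAC and 2 single-cell libraries. The submitters' processing notes list Subread 1.5.2, Bowtie2 2.2, STAR 2.4.0, Seurat 3.0, Cell Ranger 3.3.0, edgeR, MACS2 and limma, with mm10 and mm9 as builds and no word on which served which table. In bulk RNA the authors deposited log2 CPM, although CPM had been expected, and limma was run on the log2 values as deposited. In the tumor table a batch mean had been removed (largest batch coefficient 1.78e-14), so the tumor fit kept a batch term. CPM fill the ATAC tables as deposited by the authors, and from them whole reads were recovered for 100% of values within 0.1 read, as for the treated lines, and 1 nameless row per table was dropped. For single cells, the authors deposited UMI counts.

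Tests used limma 3.58.1 (trend and robust) in R 4.3.3 over all genes at 1 CPM or more in 6 or more tumors (15708 of 16078) or 3 line samples (all 15926), p-values adjusted by Benjamini-Hochberg and called under 0.05. The 4 line groups shared 1 fit, checked on simulated data. Alternatives were edgeR 4.0.16 and DESeq2 1.42.0 on recovered reads, other filters, scalings and pseudocounts, each sample left out, other windows, folds and class limits. No label says that line replicates were separate cultures, so the p-values reflect the spread among libraries that may be technical replicates. Per bulk comparison the 6 lowest and 4 highest genes and a fixed set of role examples could be named, in ATAC and single cells the 3 lowest and 3 highest ratios. Nop14 and Mybbp1a in tumors, and Dkc1 and Nolc1 in ATAC, were named after their values were seen, as were Utp20 in tumors and the genes followed across cell classes. Promoter sequences are from RefSeq (GRCm38.p6), with 43 of 49 genes matched. Thinning used a fixed seed.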

Additional observations from a re-analysis of the deposited data

Results flagged for a closer look

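For each gene and tumor group, the highest and the lowest tumor were compared with the rest of the group by Dixon's ratio, which chance alone passes in about 1 in 20 groups. Of 98 such groups, 15 held a lone tumor, and 9 of these were in GTS tumor 1. That tumor was low for Nolc1 (4.53 log2 CPM), Fbl (3.33), Rrp1b (3.35), Rrp12 (3.35), Wdr43 (4.79), Wdr74 (2.50), Bop1 (3.46), Polr1c (3.81) and Tcof1 (3.31). GTML tumor 3 was high for Nolc1 (9.53), Rrp12 (8.68), Noc3l (7.28) and Rcl1 (7.63), and GTML tumor 8 for Polr1a (8.72). GTML tumor 4 was low for Imp4 (6.14).

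The response to DOX differed between the lines by the interaction test in limma, lower (a larger fall) in preGTS1 in 30 genes and higher (a smaller fall) in 1. Over all genes the response was lower in 25.1% and higher in 17.1%. Among the genes named, the differences were -1.21 for Pes1, -0.94 for Tcof1, -0.91 for Nolc1, -0.89 for Wdr12, -0.88 for Wdr3, -0.86 for Npm1 and 0.58 for Ltv1.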

How the results depend on the processing

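Under every alternative run, all 49 genes were called lower and 0 higher under DOX in both lines, including edgeR and DESeq2 on recovered reads. In the lines no gene fell under the filter, so leaving it out gave the same fit. A DESeq2 fit gave a median of -2 in preGTS1 under DOX, 2 genes with a higher response in preGTS1, and a median of 0.51 between the lines under DMSO. Centring on the median gene gave 5 lower genes and a median of 0.46 under DMSO, and a median of 0.05 under DOX. Without a batch term 12 genes were called lower in GTS tumors. In ATAC a 2-fold limit left 2 regions in GTML3 and 0 in preGTS1 under DOX, 1 between the lines, 2 in GTS1 and 5 in GTS2. Of all promoter regions it left 4.17% lower and 3.68% higher in GTML3, and 2.18% and 1.45% in preGTS1. Between the lines these shares were 8.84% and 10.5%, in GTS1 15% and 16.3%, and in GTS2 14.2% and 15.6%. With limma on single libraries, the calls in either direction were 1 in GTML3 and 0 in preGTS1 under DOX, 13 between the lines, 19 in GTS1, 17 in GTS2 and 3 for GFP, and a window of 500 bases gave a median of -0.3 between the lines. In single cells, totals without mitochondrial and ribosomal protein genes gave medians of -0.08 between libraries and 0.03 and 0.23 for G2/M in GTML_SOX9-GFP and fGTS2, and a limit of 10 UMIs gave 0.02 in the former. Over all genes the medians in these settings were -0.22, -0.13, -0.13 and -0.03.

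Leaving out 1 sample gave 0 to 9 lower genes in tumors (0 to 229 over all genes) with medians from -0.77 to -0.47. It gave 27 to 32 lower and 1 to 2 higher responses in preGTS1, where the main fit had 25.1% lower and 17.1% higher over all genes. The median in preGTS1 under DOX ran from -2.11 to -2.05, that between lines from 0.55 to 0.6 under DMSO and from 0.04 (without DOX replicate 1 of GTML3) to 0.17 under DOX. Regions past 1.5-fold numbered 6 to 11 in GTML3 and 2 to 3 in preGTS1 under DOX, 14 to 20 between the lines, 12 to 24 in GTS1 and 16 to 19 in GTS2, with medians of -0.04 to 0.08, 0.03 to 0.07, -0.35 to -0.18, -0.05 to 0.1 and 0.07 to 0.19, and of -0.05 to -0.01 for GFP. Of all promoter regions, 14.1% to 19.5% were then lower and 12.7% to 14.1% higher in GTML3. In preGTS1 these shares were 10.1% to 10.9% and 8.94% to 9.57%, and between the lines 26.5% to 27% and 16.2% to 18.5%. In GTS1 they were 27.6% to 28.7% and 27.7% to 28.9%, and in GTS2 22.8% to 24.8% and 26.9% to 28.5%. Signs turned for values near 0. In tumors these were Emg1 (0 median-centred, 0.24 in the first batch, -0.21 to 0.08 without 1 tumor), Ltv1 (0.09 median-centred, 0.13 in the other batch, -0.16 to 0.19 without 1 tumor), Imp3 (-0.07 in the other batch, 0 without GTS tumor 2) and Tsr1 (-0.1 in the first batch, -0.04 to 0.3 without 1 tumor). In the lines, without 1 library, they were Bysl (-0.11 to 0.18) and Ddx21 (-0.17 to 0.02) for the difference of responses, Gnl3 (0.02) under DMSO, and Tcof1 (-0.09 to 0.04), Wdr12 (-0.23 to 0.05) and Ncl (-0.22 to 0.02) under DOX. The causes were not tested.

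Line samples of equal replicate number are not stated to be paired. Same-numbered deviations had correlations of -0.1537 to 0.0765, which were not set beside those of other pairs and cannot exclude pairing. A fit with a replicate block gave 27 lower and 1 higher responses in preGTS1 and 21 genes higher under DOX, and the other counts were as without it.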
